A study of Mus musculus with 189 samples.

Results

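Tead4, Yap1 and Lats2 are 3 genes of the Hippo signalling pathway among the 192 genes assayed by single-cell quantitative PCR (qPCR) in mouse oocytes and preimplantation embryos. They were picked by name from the table of cycle thresholds (Ct), and all of them belong to the 156 genes whose assays passed the authors' quality check and were tested here. Nf2, the other Hippo pathway gene on the panel, is described beside them, and Cdx2 and Gata3 serve as readouts of the targets of the pathway. The oocytes and embryos came from superovulated F1 (C57BL/6 x DBA/2) females, the embryos were sired by C57BL6 males and cultured in KSOMaa medium under low oxygen, and no group was treated or carried a mutation. The main set of 168 of the 189 samples held 11 oocytes arrested in metaphase II (MII oocytes), 14 zygotes, 21 samples of the 2-cell stage, 7 of the 3-cell stage, 12 of the 4-cell stage, 27 of the 8-cell stage, 26 of the 16-cell stage (morula) and 50 of the 32-cell stage (blastocyst). A sample was a whole oocyte, zygote or embryo, 1 blastomere, or several blastomeres of 1 embryo picked together. Blastomeres of 1 embryo are not independent, so each test used 1 mean value per oocyte, zygote or embryo, 58 units in all. The 16-cell stage had only 2 such units, and 11 blastomeres of the 2-cell stage with no embryo in their labels were averaged as 1 unit. Both 16-cell units are given as morula by their stage label, but their source name reads morual blastocyst and their titles number cells beyond 16, so every step into or out of this stage rests on embryos whose exact stage is uncertain. For 3 samples of the 2-cell stage the labels say blastomere while the titles name none, so they may be whole embryos. Of these, 1 shares its embryo label with 2 named blastomeres. That unit averages 3 samples, more than the cells of a 2-cell embryo, so it may mix sources. Whole embryos of the 16- and 32-cell stages (3 each), an isolated inner cell mass (ICM) and an isolated trophectoderm were kept apart from the main set.

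In the Hippo pathway, the LATS kinases phosphorylate the coactivator YAP1, which then stays in the cytoplasm. Without that signal YAP1 enters the nucleus, where it binds DNA through TEAD transcription factors. TEAD4 is the family member known to be required for the trophectoderm of the mouse embryo, and Cdx2 and Gata3 are transcription factor genes that act downstream of it in outer cells. NF2, also called Merlin, is a membrane-associated activator of the LATS kinases in inner cells. In other cell types Lats2 is itself a transcriptional target of YAP and TEAD. The assays measured transcripts only, and neither phosphorylation nor the location of a protein was measured.

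TEAD factors bind the core motif CATTCC, which reads GGAATG on the other strand. Both letter strings were searched in RefSeq windows (build GRCm38.p6) that run from 250 bases before to 50 bases after each annotated gene start, because Lats2 and the readouts varied together among blastomeres. Windows were held for Yap1, Lats2, Nf2, Cdx2 and Gata3, but not for Tead4. GGAATG occurred once in the Yap1 window and once in 1 of the 2 Lats2 windows, and neither string occurred in the windows of Cdx2, Gata3 and Nf2. Of all 32851 windows of that length, 14.7% held either string, and among the 149 windows of the genes tested the share was 8.05%, so a match is common. Sequence outside the windows was not searched, so a site elsewhere would be missed. The 30 bases around each match are given on the strand of the gene, with the motif in capitals.
Yap1, chr9:8004720-8004749, minus strand, upstream of the gene start: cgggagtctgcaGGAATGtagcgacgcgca
Lats2, chr14:57746102-57746131, minus strand, just inside the transcribed part: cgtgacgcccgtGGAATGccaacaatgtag

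Levels are given as log2 values, 30 minus Ct minus the mean of the same quantity over the control genes Hnrnpr, Ssu72 and Ube2e1, so that 1 unit is a 2-fold difference if each cycle doubles the product. A Ct of 30 stands for no detected product. In RNA of embryonic stem cells (ESC) diluted from 200 to 25 pg, 30 minus Ct rose by 1.07 per doubling of RNA for Tead4, 1.24 for Yap1 and 0.79 for Lats2, against 1.00 to 1.28 for the control genes. In a second series from 800 to 32 pg the order was the other way, with 0.94 for Tead4, 0.86 for Yap1 and 1.18 for Lats2. In 3 repeats at 200 pg the SD was 0.46 for Tead4, 0.20 for Yap1 and 1.03 for Lats2, where 1 repeat lay at 10.9 and the others at 12.6 and 12.8. Levels of different genes come from different assays and are not set against each other. The control genes themselves lay at a median 30 minus Ct of 17.1 in MII oocytes, 14.0 in the 16-cell blastomere samples and 12.3 in the 32-cell blastomere samples. The samples were run on several chips, and the sources used here do not say which sample was on which chip. Within a stage nothing states that units came from separate litters, so p-values measure the spread between these units.

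Tead4 was the member with the sharpest change, an increase between the zygote and the 2-cell stage. Its level was -9.92, -7.73 and -7.18 (lowest, median and highest) in MII oocytes and -9.40, -8.19 and -7.14 in zygotes. In the 2-cell samples it was -2.89, -1.24 and 0.62. No 2-cell sample overlapped any oocyte or zygote, and Tead4 was detected in every sample of the main set. The mean rose from -8.43 ± 0.75 (SD, n = 14 zygotes) to -1.02 ± 1.047 (n = 8 units), a difference of 7.41 ± 0.32 (SE), or 170-fold (limma, adjusted p = 5.96e-27). At this step 29.5% of the 156 genes tested rose and 39.1% fell, so the direction of Tead4 was shared by many genes. The 21 samples of the 2-cell stage covered a range of more than 3 units. Sister blastomeres gave -2.89 and -2.20 in 1 labelled embryo and -0.84 and 0.21 in another.

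After the 2-cell stage Tead4 changed less. A further increase of 1.09 ± 0.39 to the 4-cell stage passed the test (adjusted p = 0.0271), where 7.05% of genes rose. With the authors' normalized table this step was 0.78 and did not pass (adjusted p = 0.129), nor did it without 4-cell embryo 6 (1.03, adjusted p = 0.0560). The 4-cell samples lay at -0.68, 0.27 and 1.01, the 8-cell samples at -0.23, 0.49 and 1.90, and the 16-cell samples at -1.30, -0.0032 and 0.53. The 32-cell samples spread most, at -3.30, -0.78 and 1.36, and they overlapped every stage from the 2-cell stage on. None of the later steps passed the test, but in the authors' normalized table Tead4 fell from the 8- to the 16-cell stage (-2.42, adjusted p = 9.81e-04). In that table it also fell from the 16- to the 32-cell stage (-1.69, adjusted p = 0.0337). The median change of all genes there was -1.55 and -0.99. At the first of these steps 79 genes were called, 3 of them higher, and at the second 43, 3 of them higher. The direction of Tead4 was thus shared by many genes. The 3-cell samples lay at -3.52, -0.13 and 0.69. Ordered by unit means, the stages ran 8-cell, 4-cell, 16-cell, 3-cell, 32-cell, 2-cell, MII oocyte and zygote. The only neighbours in that order that differed beyond their spread were the 2-cell stage and the MII oocyte (6.84 ± 0.33, adjusted p = 7.39e-25).

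Yap1 ran the other way, from a maternal supply to a low at the 8- and 16-cell stages. Its level was -1.46, -1.21 and -0.54 in MII oocytes, -0.67, -0.39 and -0.10 in zygotes and -1.56, -0.57 and 0.75 in 2-cell samples. It was then -2.57, -1.77 and -0.93 in 4-cell samples, and -5.66, -4.28 and -3.27 in 8-cell samples. No 8-cell sample reached the lowest 4-cell sample. The mean fell by 1.11 ± 0.25 from the 2- to the 4-cell stage (limma, adjusted p = 8.08e-04), where 25.6% of genes fell. It fell by 2.43 ± 0.26 from the 4- to the 8-cell stage (adjusted p = 3.04e-11), a 5.41-fold lower level at a step where 35.9% of genes fell. Between MII oocytes and zygotes, where 1.92% of genes changed, Yap1 was the 1 gene of 156 called higher. That call was lost when Hnrnpr was left out of the control genes (0.62, adjusted p = 0.0566) and when the 1 oocyte outside the main set was added (0.67, adjusted p = 0.0763).

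At the 16-cell stage Yap1 lay at -12.12, -4.59 and -3.61. The lowest value is the only sample of the main set with no Yap1 product. It was blastomere 11 of 16-cell embryo 5, and its control genes (12.12 as mean 30 minus Ct) were the lowest among the 26 samples of the stage. A sister of it, blastomere 5, lay at -9.16, and the other 24 samples ranged down to -5.94. The further fall from the 8- to the 16-cell stage (-1.005 ± 0.38, adjusted p = 0.0426, with 8.33% of genes falling) rested on these samples. It was -0.73 (adjusted p = 0.152) without the undetected sample and -0.53 (adjusted p = 0.641) without embryo 5.

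Yap1 then rose from the 16- to the 32-cell stage, where the samples lay at -5.71, -3.23 and -1.35. The mean went from -5.15 ± 0.68 (n = 2 embryos) to -3.10 ± 0.35 (n = 7 embryos), a rise of 2.04 ± 0.38 (adjusted p = 6.52e-05). Only 8.97% of the genes tested rose at this step and 1.92% fell. Leaving out either 16-cell embryo gave 1.57 or 2.52, and both passed the test. In the authors' normalized table the rise was 0.89 (adjusted p = 0.150). That table is relative to Gapdh, Hspa8 and Lmnb1, whereas the paper names the control genes used here. Other control genes shift all genes of a step together, and the median change of all genes went from 0.16 to -0.99. Why the 2 sets of control genes differ at this step was not tested. Ordered by unit means, Yap1 was highest in zygotes, followed by the 2-cell stage, MII oocytes, the 3-cell, 4-cell, 32-cell, 8-cell and 16-cell stages. The 4- and 32-cell stages and the 32- and 8-cell stages were neighbours that differed beyond their spread, as were the 2-cell stage and the MII oocyte. The 8- and 16-cell stages did too, but that difference rested on 16-cell embryo 5, as given above. The 3-cell samples (-1.98, -1.42 and 0.017) did not differ from the stages beside them.

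Lats2 kept a low level until the 4-cell stage and stepped up at the 8-cell stage. Its level was -6.58, -4.40 and -2.40 in MII oocytes and -5.41, -4.24 and -3.47 in zygotes. It was not detected in 3 of 21 samples of the 2-cell stage and in 2 of 12 samples of the 4-cell stage. The detected and undetected 4-cell samples together lay at -15.9, -3.88 and -2.26, and the 8-cell samples at -2.76, -1.23 and -0.14. The ranges met only at their ends, where 2 of the 4-cell samples lay above the lowest 8-cell sample. The mean rose by 3.45 ± 0.77 (limma, adjusted p = 1.67e-04), or 10.9-fold, at a step where 13.5% of genes rose. Both undetected 4-cell samples were blastomeres of 4-cell embryo 6, which stood apart from the other 5 units of its stage. Without it the rise was 2.39 ± 0.67 (adjusted p = 0.0025), and Lats2 also rose from the 2- to the 4-cell stage (2.10 ± 0.65, adjusted p = 0.0147). From the 8-cell stage on Lats2 was detected in every sample, at -3.22, -0.76 and 0.97 in the 16-cell stage and -4.63, -0.99 and 1.67 in the 32-cell stage. Neither later step passed the test (adjusted p = 0.856 and 0.910). In the order of unit means the 16-, 32- and 8-cell stages formed an upper group whose members did not differ from each other, the 3-cell stage came next (2.58 ± 0.96 below the 8-cell stage, adjusted p = 0.0227), and no pair of neighbours below it differed.

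From end to end, MII oocyte to 32-cell stage, Tead4 rose by 7.18 ± 0.35 (adjusted p = 1.63e-25) and Lats2 by 3.21 ± 0.67 (adjusted p = 2.39e-05), with 38.5% of genes rising. Yap1 fell by 1.97 ± 0.23 (adjusted p = 4.05e-11), with 45.5% of genes falling. For Lats2 this direction turned with the scaling, to -0.61 in the authors' normalized table and -1.53 without normalization. The median change of all genes was -4.20 and -5.12 in these settings, against -0.38 with the control genes used here. Without normalization, 32-cell blastomere samples stand against whole oocytes. Between whole oocytes and whole 32-cell embryos without control genes, Lats2 rose by 4.49 ± 0.57 (limma, adjusted p = 1.30e-08). Of 130 genes called in that comparison, 59 rose.

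**Figure D1:**
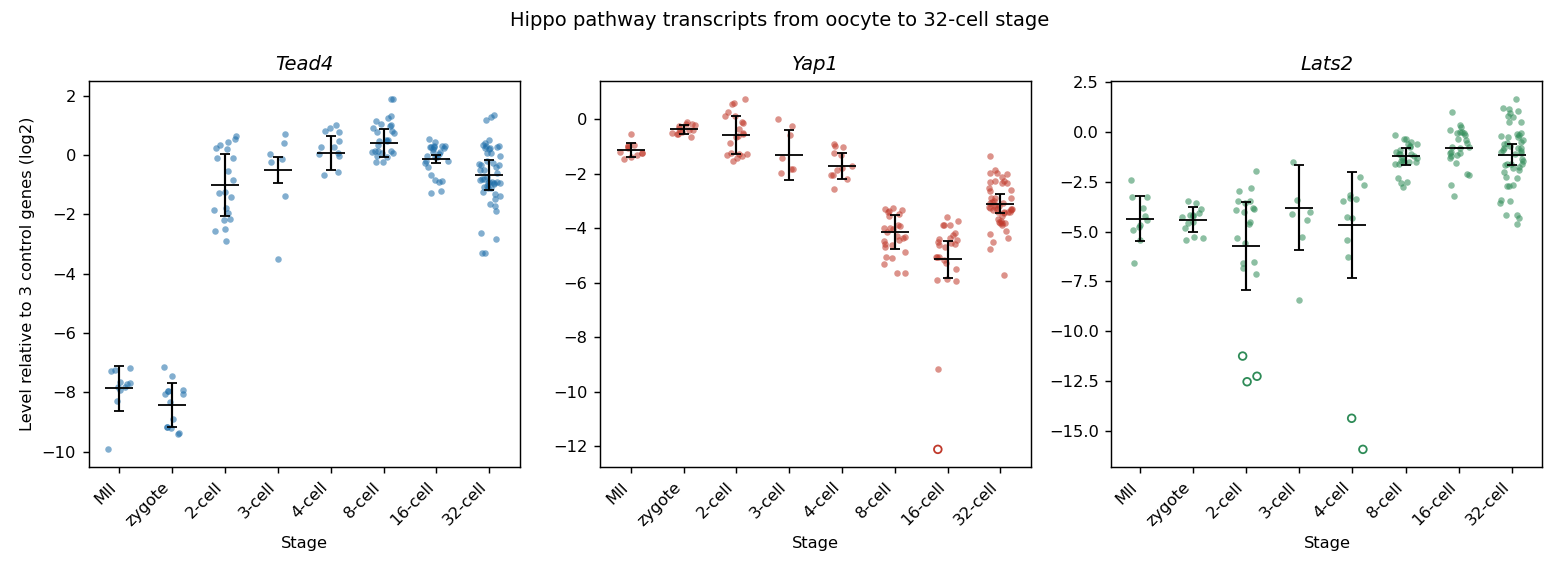
Level of Tead4, Yap1 and Lats2 relative to the control genes (log2, y axis) in each sample of the main set by stage (x axis). Points are samples, open circles are samples without product, and black bars give the mean and SD over units. Tead4 steps up at the 2-cell stage, Yap1 steps down at the 8-cell stage and is higher again at the 32-cell stage, and Lats2 steps up at the 8-cell stage.

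Nf2 and the readouts followed other courses. Nf2 was detected in every sample of the main set, rose by 1.29 ± 0.16 from the zygote to the 2-cell stage (adjusted p = 2.26e-10) and fell by 1.61 ± 0.20 from the 4- to the 8-cell stage (adjusted p = 9.64e-10), the same step at which Yap1 fell. Without normalization the first of these was -1.71, but there blastomeres stand against whole zygotes. In whole embryos without control genes Nf2 changed by 0.013 ± 0.28 at the first step (limma, adjusted p = 0.982). At the second it changed by -0.72 ± 0.36 (adjusted p = 0.131), so neither passed. Cdx2 was detected in all 11 MII oocytes, 13 of 14 zygotes and 13 of 21 2-cell samples. It was not detected in 10 of 12 samples of the 4-cell stage and was detected in all 26 of the 16-cell stage. Gata3 was detected in all 11 MII oocytes and all 14 zygotes, but in 5 of 21 2-cell samples. It gave no product in 8 of 12 4-cell samples and was detected in all 27 8-cell samples. Cdx2 and Gata3 were higher at the 8- than at the 4-cell stage (adjusted p = 2.90e-08 and 5.25e-08), but a sample without product is placed by its control genes, so no size is given for these differences. A list of ICM genes held Sox2, Pou5f1, Nanog, Klf2, Klf4, Esrrb, Fgf4, Pdgfra, Sox17 and Pecam1, and a list of other trophectoderm genes held Krt8, Krt19, Id2, Tspan8, Dppa1, Elf5, Hand1 and Fgfr2. Between the zygote and the 2-cell stage, where 29.5% of all genes rose and 39.1% fell, 6 of the 10 ICM genes rose and 2 fell, and 3 of the 8 trophectoderm genes rose and 2 fell. From the 2- to the 4-cell stage (7.05% up and 25.6% down) 1 ICM gene rose and 3 fell, and 3 trophectoderm genes fell. From the 4- to the 8-cell stage (13.5% up and 35.9% down) 3 genes rose and 1 fell in each list. From the 8- to the 16-cell stage (19.9% up and 8.33% down) 2 rose and 1 fell in each list. From the 16- to the 32-cell stage (8.97% up and 1.92% down) 4 ICM genes rose (Sox2, Klf2, Pecam1 and Sox17) and no trophectoderm gene was called. In whole embryos, kept apart from this fit, Sox2, Klf2 and Pecam1 changed by 0.16, -0.51 and -1.84 at this step. The difference from embryos averaged from blastomeres passed for Sox2 and Klf2 (limma, adjusted p = 0.0063 and 0.0276). It did not pass for Pecam1 (0.0857) and Sox17 (0.952), and 20.5% of genes were called. No gene of either list was called between MII oocyte and zygote. The 2 trophectoderm genes that rose at the 16-cell stage were Krt8, a keratin of the trophectoderm (5.20, adjusted p = 0.0028), and Dppa1 (adjusted p = 0.0113). The 1 that fell was Hand1 (adjusted p = 0.0354). Dppa1 gave no product in 15 of 27 8-cell and 8 of 26 16-cell samples, and Hand1 in 10 of 26 16-cell samples. No size is therefore given for Dppa1 and Hand1.

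Whole oocytes, zygotes and embryos went into 1 reaction each. Their 30 minus Ct without control genes therefore follows how much of a transcript an embryo held. It also carries any difference in yield or chip between reactions, which was not tested. In such samples fewer cells of a type, less RNA per cell and a lower yield cannot be told apart. The median change over all genes was 2.79 from the 8- to the 16-cell embryo and -2.46 from the 16- to the 32-cell embryo. Tead4 stood at 8.63 ± 0.92 in 14 zygotes. It was 15.02, 16.1 and 12.7 in 3 whole 2-cell embryos, all above every zygote. The rise was 5.97 ± 0.60 (limma, adjusted p = 8.32e-11), where 17.9% of genes rose and 59.6% fell. It stood at 15.5, 14.8 and 16.4 in the 4-cell embryos, 17.3, 17.4 and 16.0 in the 8-cell embryos, 18.4, 19.7 and 19.6 in the 16-cell embryos, and 16.8, 17.7 and 18.2 in the 32-cell embryos. From zygote to 32-cell embryo the gain was 8.93 ± 0.60 (adjusted p = 1.56e-15), with 40.4% of genes gaining.

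The Yap1 content of an embryo fell in 2 stages. It was 16.7 ± 0.54 in zygotes, 15.02, 14.7 and 13.4 in the 2-cell embryos, and 14.3, 14.2 and 14.3 in the 4-cell embryos. In the 8-cell embryos it was 12.6, 12.6 and 12.7, below every earlier embryo. It fell by 2.29 ± 0.33 at the first step (adjusted p = 1.26e-07), where 59.6% of genes fell and the control genes went from 17.1 to 15.5, and relative to the control genes the step was -0.71 in these embryos (adjusted p = 0.0017) and -0.22 over all units (adjusted p = 0.355). It decreased by 1.63 ± 0.42 from the 4- to the 8-cell embryo (adjusted p = 0.0032, with 11.5% of genes falling). Both losses also passed the test when any 1 whole embryo was left out. From zygote to 32-cell embryo Yap1 fell by 2.10 ± 0.33 (adjusted p = 7.12e-07), with 44.9% of genes falling. The 16-cell embryos, at 14.1, 15.6 and 15.6, and the 32-cell embryos, at 13.8, 14.7 and 15.3, held more than the 8-cell embryos. The control genes rose as well, from a mean of 16.8 ± 0.71 in 8-cell to 19.3 ± 0.95 in 16-cell embryos, and fell to 17.4 ± 0.79 in 32-cell embryos. So the gain of Yap1 at the 16-cell embryo (2.44 ± 0.42, adjusted p = 4.22e-06) came at a step where 79.5% of genes gained, and relative to the control genes it was 0.03. From the 16- to the 32-cell embryo Yap1 changed by -0.50 ± 0.42 per embryo (adjusted p = 0.300), at a step where 64.1% of the genes fell.

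Lats2 content fell and then rose. It was 12.7 ± 0.67 in zygotes and 9.78, 9.34 and 12.0 in the 2-cell embryos, where it fell by 2.29 ± 0.56 (adjusted p = 3.86e-04). Relative to the control genes the same step was -0.70 in these embryos and did not pass (adjusted p = 0.326). The 4-cell embryos held 12.6, 11.2 and 12.7, and the 8-cell embryos 15.5, 16.0 and 15.18, all above the 4-cell embryos. This gain of 3.38 ± 0.71 (adjusted p = 4.38e-04) came at a step where 14.1% of genes gained. The 16-cell embryos held 17.7, 19.6 and 19.3 and the 32-cell embryos 16.7, 17.3 and 17.7. From zygote to 32-cell embryo the gain was 4.56 ± 0.56 (adjusted p = 4.88e-09).

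**Figure D2:**
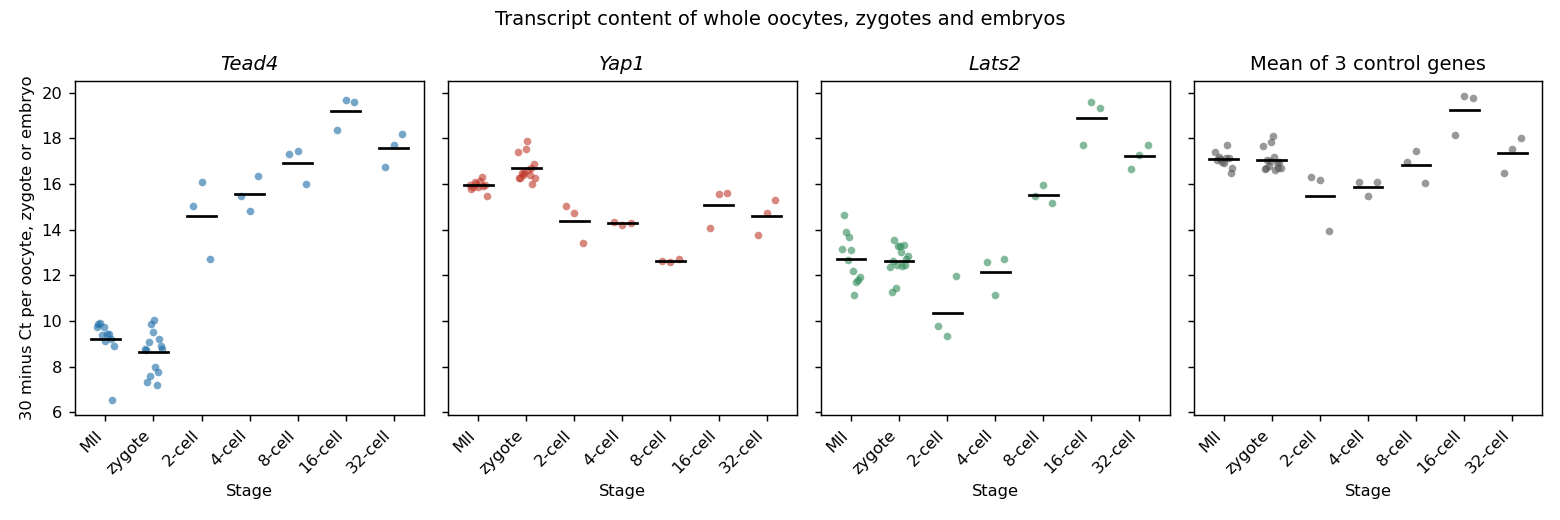
30 minus Ct without control genes (y axis) for Tead4, Yap1, Lats2 and the mean of the 3 control genes in whole oocytes, zygotes and embryos by stage (x axis). Points are single oocytes, zygotes or embryos, and bars are means. Yap1 is lowest in the 8-cell embryos (12.6 to 12.7), and the control genes peak in the 16-cell embryos, where Tead4 and Lats2 peak too.

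Embryos averaged from blastomeres and whole embryos differed in the readouts. Cdx2 gave no product in 16 and Gata3 in 24 of the 50 blastomere samples of 32-cell embryos, whereas all 3 whole 32-cell embryos had Cdx2 at 1.02 to 1.34 and Gata3 at 2.56 to 2.77. The change of Cdx2 from the 16- to the 32-cell stage was -5.99 in embryos averaged from blastomeres and 0.34 in whole embryos, and that of Gata3 was -7.15 and 0.93. These differences between the kinds of sample passed a test of their own (limma, adjusted p = 0.0426 and 0.0435, with 20.5% of genes called). Samples without product weigh on these means of log values. With linear means within embryos, chosen after seeing the data, the differences were -3.28 for Cdx2 (adjusted p = 0.236) and -4.29 for Gata3 (adjusted p = 0.443), and neither passed. For Tead4 the 2 changes were -0.54 and 0.26 (difference -0.79 ± 0.45, adjusted p = 0.231), and for Lats2 -0.34 and 0.24 (difference -0.58 ± 0.46, adjusted p = 0.399). For Yap1 they were 2.04 and 1.40, both past the test and in the same direction (difference 0.64 ± 0.40, adjusted p = 0.269). Whole 16-cell embryos had Yap1 at -4.07, -4.26 and -4.15 and whole 32-cell embryos at -2.73, -2.81 and -2.73, without overlap. Nf2 rose in both kinds too, by 0.93 and 0.79, and in the fit over all stages its call was lost without either 16-cell embryo.

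The isolated ICM and trophectoderm were 1 sample each and allow no test. Tead4 was 0.36 in both. Yap1 was -3.50 in the ICM sample and -2.78 in the trophectoderm sample, and Lats2 was -0.03 and 0.45. All 10 genes of the ICM list were higher in the ICM sample, and 6 of the 8 other trophectoderm genes were higher in the trophectoderm sample (median difference 0.94). Cdx2 was 0.43 in the ICM and 1.84 in the trophectoderm sample, and Gata3 was 1.53 and 2.73, the direction the labels give. The ICM sample was nevertheless high in both among the picked 32-cell samples, since only 10 and 9 of the 50 were above it. Of those 50, 16 gave no Cdx2 and 24 no Gata3 product. It lay below all 3 whole 32-cell embryos, which had Cdx2 at 1.02 to 1.34 and Gata3 at 2.56 to 2.77. How far the isolated ICM held cells of the other kind was not tested.

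Sister samples of 1 embryo were compared next. At the 8-cell stage the SD of Tead4 among sisters was 0.30, 0.54, 0.40 and 0.41 in the 4 embryos, and at the 16- and 32-cell stages it ran from 0.28 to 1.21 in 9 embryos. For Lats2 the 8-cell SDs were 0.67, 0.47, 0.50 and 0.53, and 8 of the 9 later embryos lay above all of them (0.91 to 1.98), the exception being 32-cell embryo 12 at 0.44. For Yap1 the SDs were 0.49, 0.73, 0.40 and 0.07 and later 0.05 to 2.39, so the groups overlapped widely. The mean SD differed by 0.77 for Lats2 (two-sided exact permutation test over embryos, p = 0.0154, adjusted p = 0.129), 0.35 for Tead4 (p = 0.0531, adjusted p = 0.188) and 0.46 for Yap1 (p = 0.210, adjusted p = 0.356). None of the 156 genes passed after adjustment (0% called), and 41 had an unadjusted p under 0.05. The SD of the control gene Hnrnpr also went up, from 0.25 to 0.48 on average, and its part in the larger spread of Lats2 and Tead4 was not tested.

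**Figure D3:**
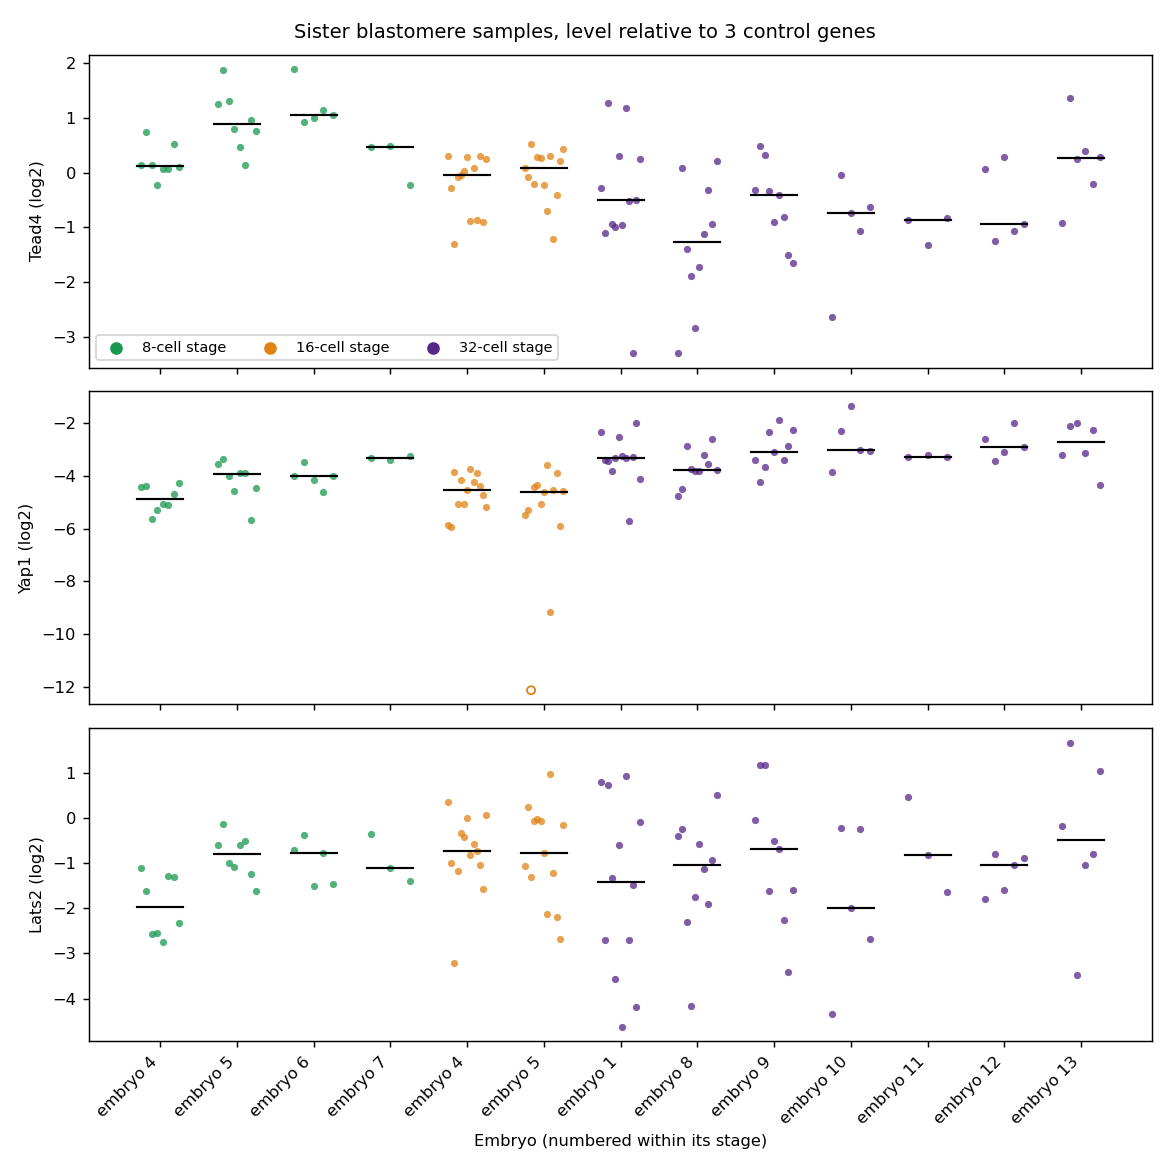
Level of Tead4, Yap1 and Lats2 relative to the control genes (log2, y axis) in blastomere samples, grouped by embryo (x axis) and coloured by stage. Points are samples of 1 or several cells, open circles have no product, and bars are embryo medians. The sister SD of Lats2 is 0.47 to 0.67 in the 8-cell embryos and reaches 1.98 in the 32-cell embryos.

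Among the 76 samples picked from 16- and 32-cell embryos, Tead4 followed both readouts. Spearman's rho was 0.75 with Cdx2 and 0.72 with Gata3, while the median over all gene pairs was 0.09. These samples share embryos, stages and the control genes, so the correlations are descriptions and carry no p-value. The study placed Tead4 among its trophectoderm genes on these same samples. From them it also reported that Lats2 went with trophectoderm genes and Yap1 with ICM markers, so the signs given below are not independent of that report. At the high end, the samples with Tead4 at 1.36, 1.27 and 1.19, all of the 32-cell stage, had Cdx2 at 1.40, 1.69 and 2.13. At the low end, of the samples with Tead4 at -3.30, -3.29, -2.84 and -2.63, Cdx2 was detected in 1 and Gata3 in 1 other. The relation with Cdx2 was 0.74 in the 16-cell samples and 0.63 in the 32-cell samples, and 0.62 once each embryo's mean had been subtracted. It was positive in all 8 embryos with at least 5 samples (0.09 to 0.84, median 0.65). With Gata3 it was positive in 7 of the 8, the exception being 32-cell embryo 12, with 5 samples (-0.70).

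Lats2 also varied with the readouts, although its product is a kinase that restrains YAP1. Its rho was 0.65 with Cdx2 and 0.60 with Gata3 over the 76 samples, and 0.69 and 0.55 with embryo means subtracted. Within embryos it was positive in 7 of 8 for Cdx2 (median 0.70) and in 8 of 8 for Gata3 (0.10 to 0.80). The samples with the highest Lats2 levels, 1.67, 1.18 and 1.16, had Gata3 at 3.29, 2.90 and 2.74. In those with the lowest Lats2 levels, -4.63, -4.34, -4.18 and -4.16, Gata3 was not detected. Tead4 and Lats2 had a rho of 0.54 with each other (0.49 within the 32-cell stage), and it was positive in 7 of 8 embryos.

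Yap1 had the opposite sign over all samples and within the 16-cell stage, and a weak relation within the 32-cell stage. Over the 76 samples its rho was -0.50 with Cdx2 and -0.47 with Gata3. Within the 16-cell samples these were -0.49 and -0.35, and within the 32-cell samples -0.08 and -0.14. With embryo means subtracted they were -0.14 and -0.25. Single embryos ran from -0.72 to 1.00 for Cdx2, negative in 6 of 8, and from -0.70 to 0.40 for Gata3, negative in 7 of 8. The 16-cell samples combined low Yap1 with Cdx2 detected in every sample, and the 32-cell samples combined higher Yap1 with many samples lacking Cdx2. Among samples in which both genes were detected, the rho was -0.51 for Cdx2 and -0.18 for Gata3. Yap1 also moved with the level of the control genes (rho -0.55 over the 76 samples and -0.38 within the 32-cell stage, against 0.20 and 0.08 for Tead4 and 0.28 and 0.29 for Lats2). Cdx2 (0.45 over the 76 samples) and Gata3 (0.39) did so too, and the part of this in the relations was not tested. Yap1 and Tead4 had a rho of -0.27 over all samples, -0.50 in the 16-cell and 0.08 in the 32-cell samples.

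**Figure D4:**
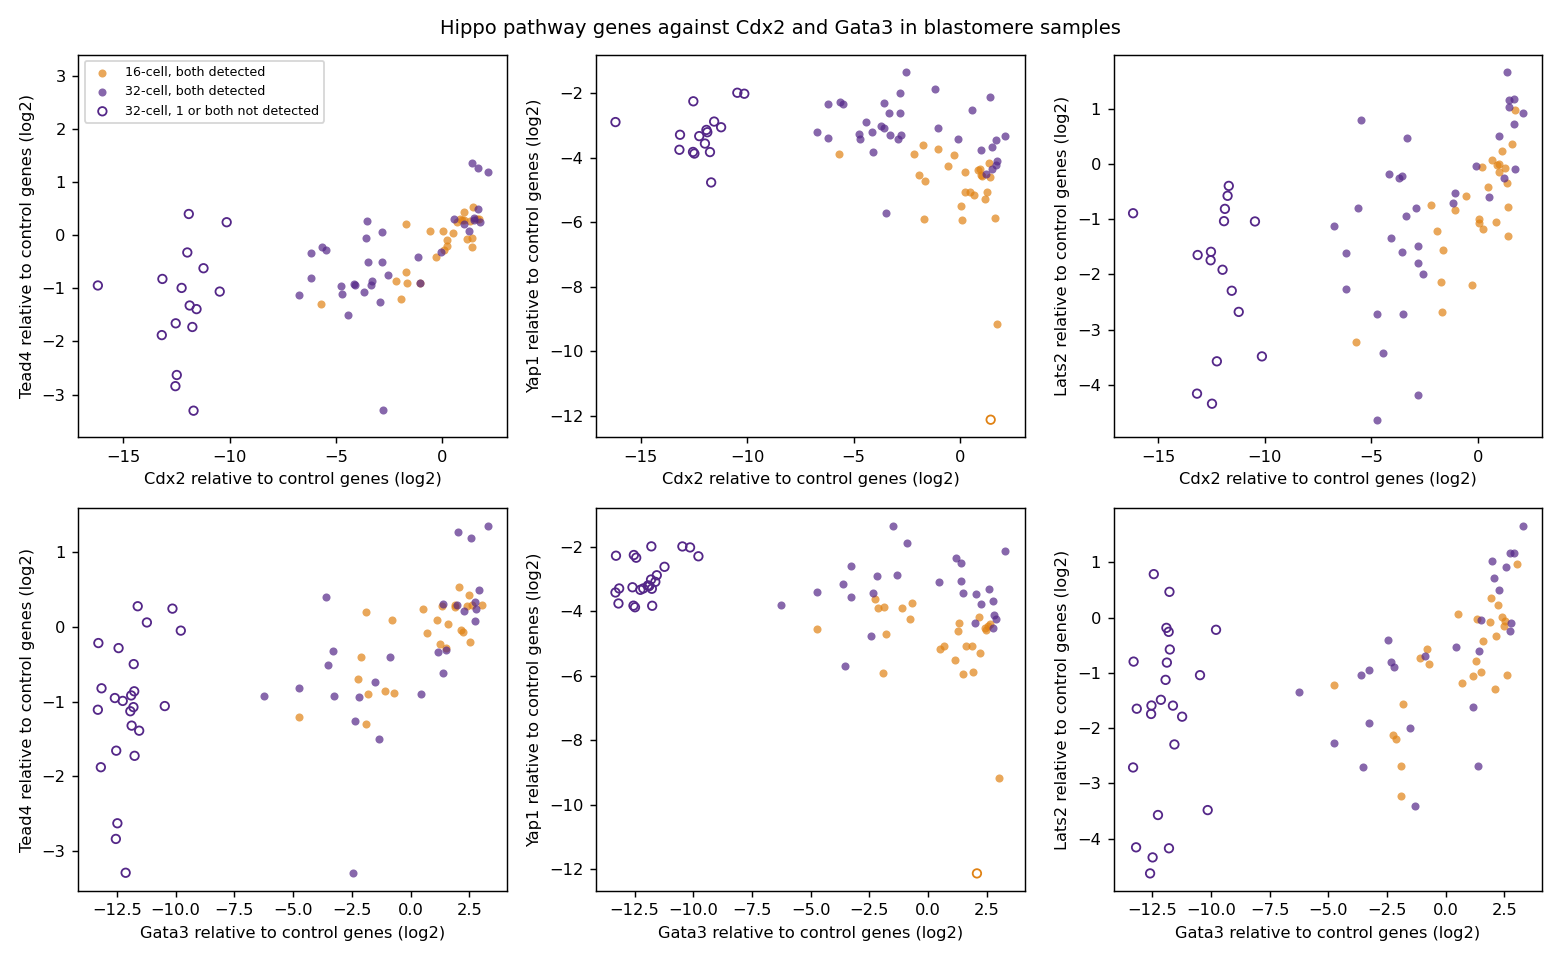
Tead4, Yap1 and Lats2 (y axes) against Cdx2 (top) and Gata3 (bottom, x axes), all relative to the control genes (log2), in 76 blastomere samples of the 16-cell (orange) and 32-cell (purple) stages. Open circles have 1 or both genes without product, so their place on that axis is set by the control genes. Tead4 and Lats2 climb with both readouts, and Yap1 falls with Cdx2 within the 16-cell samples (rho -0.49) but hardly within the 32-cell samples (-0.08).

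**Figure D5:**
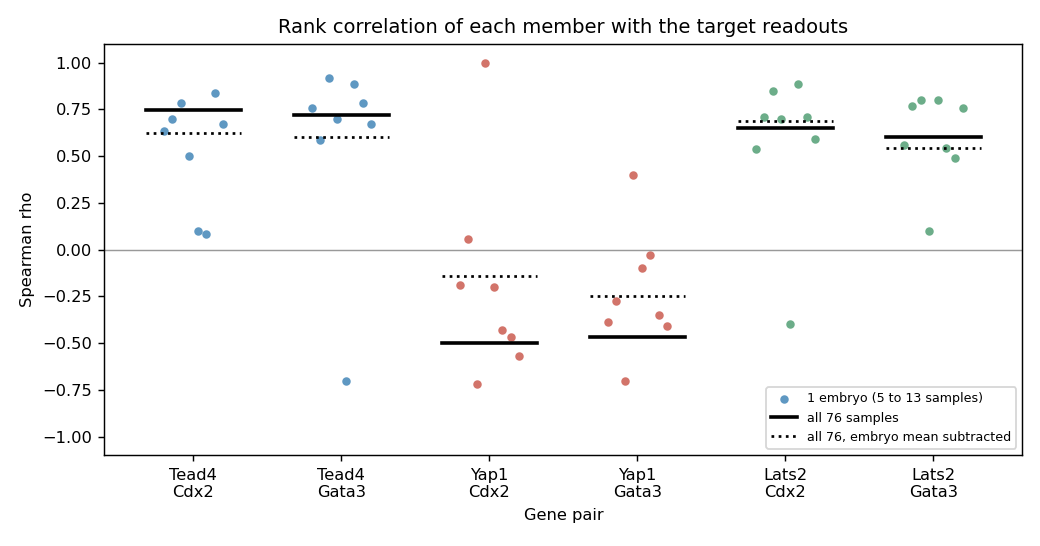
Spearman's rho (y axis) of each member with Cdx2 and Gata3 (x axis). Points are single embryos with 5 to 13 samples, the solid line is the rho over all 76 samples, and the dotted line is the rho with each embryo's mean subtracted. For Tead4 and Lats2 the lines lie close together, and for Yap1 the dotted line is nearer to 0.

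Several genes of both lists had been grouped by the study on these same samples, so the values with the lists are descriptions only. With the 10 ICM genes Tead4 had a negative rho for all 10 (median -0.57, against -0.05 over all genes), and Lats2 for all 10 (median -0.38, against -0.07). Yap1 had a positive rho with 9 of 10 (median 0.50, against 0.17 over all genes). Within the 16-cell stage it was positive with 9 of 10 (median 0.37, against 0.10), within the 32-cell stage with 8 of 10 (0.21, against 0.17), and with embryo means subtracted with 10 of 10 (0.23, against 0.09). With the 8 other trophectoderm genes the median was 0.55 for Tead4, 0.49 for Lats2 and -0.11 for Yap1. Hand1 was the lowest of the 8 for both Tead4 (-0.22) and Lats2 (-0.23). Nf2 had a rho of 0.61 with Yap1 over the 76 samples and 0.23 with embryo means subtracted.

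The genes most like each member were found over the 76 samples by Spearman's rho. For Tead4 they were Cdx2 (0.75), Gata3 (0.72) and the keratin gene Krt8 (0.71), and the most opposite was Sox2 (-0.64), a transcription factor gene of the ICM. For Lats2 they were Id2 (0.66), an inhibitor of bHLH factors, Cdx2 (0.65) and Dppa1 (0.60), and the most opposite was Pdgfra (-0.58), a receptor gene of the primitive endoderm. For Yap1 they were the Polycomb gene Scmh1 (0.83), Setd5 (0.73) and the histone methyltransferase gene Mll1 (0.71), and the most opposite was Cdx2. Of the last group only Scmh1 kept a rho above 0.5 once embryo means were subtracted (0.57, against 0.27 for Setd5 and 0.11 for Mll1). Over the 8 stage means, the highest Pearson's r were with Cbx3, Esrrb and Hdac1 for Tead4 (0.99 each), with Rnf2, Phc2 and Clock for Yap1 (0.96 each), and with Gata6, Lrpap1 and Cbx6 for Lats2 (0.95, 0.93 and 0.91).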

How the data were processed

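The authors converted single cells and embryos to preamplified cDNA, ran EvaGreen qPCR on BioMark chips and deposited a table of Ct values for 192 genes (treated here as a score, since it is a cycle number) and a normalized table in log2 units, which equals 30 minus Ct less the mean of Gapdh, Hspa8 and Lmnb1. A Ct of 30 stands for no product (7205 values, with 6 above 30). Of the genes, 36 failed the authors' check on specific product, and the other 156 were tested. The members, the gene lists and the tests were chosen with earlier results of these data known. Here 30 minus Ct was set against the mean of Hnrnpr, Ssu72 and Ube2e1, samples were grouped by their labelled stage and averaged per embryo. Stages were compared with limma 3.58.1 in R 4.3.3 (1 fit over all stages, Benjamini-Hochberg over the 156 genes per step, threshold 0.05). The content per embryo was fitted the same way without control genes. Spearman's rho has no test. An exact permutation of 715 assignments of embryos tested the spread between sisters. The 3 oocyte and blastomere samples outside the main set were left out of the main values. Named genes were the members, Nf2, the readouts, genes of the 2 lists, and for each member the 3 most like and the 1 most opposite gene by rho and the 3 most like by r over stage means. Alternatives changed the control genes, the scaling (the median of 63 genes detected in every main sample, none, or the authors' table), a floor at -10, and the samples used. The scripts were tested on simulated data. Depth has no counterpart in these values, and the number of units limits the precision.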

Additional observations from a re-analysis of the deposited data

Results flagged for a closer look

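Over 36 groups checked, 1 sample stood far from the others in 4 of them, and chance alone flags about 1 group in 20. The Lats2 mean of 4-cell embryo 6 was -9.99, against -4.33 for the next of the 6 units, and 2 of its blastomeres had no Lats2 product. The Cdx2 mean of 4-cell embryo 5 was -9.00, against -14.7 for the next of 6. The SD of Nf2 between sisters was 0.911 in 32-cell embryo 10, against 0.543 in the next of 7 embryos. That of Gata3 was 0.774 in 32-cell embryo 11, against 4.86 in the next of 7. The change from the 16- to the 32-cell stage differed between embryos averaged from blastomeres and whole embryos, by -6.33 for Cdx2 and by -8.08 for Gata3 (limma, adjusted p = 0.0426 and 0.0435). With linear means within embryos neither passed (adjusted p = 0.236 and 0.443).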

How the results depend on the processing

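Of 480 alternative values for the stage steps, 394 kept their direction and their side of the threshold, as did 114 of 132 for the content per embryo and all 12 for the spread between sisters. Of 93 for the associations 92 moved by less than the SD of their rho over 8 embryos. The exception was Yap1 with Gata3 in the 32-cell samples alone (-0.14). That SD was wide (0.24 to 0.54), so large moves also stayed within it. In the 32-cell samples alone, Yap1 with Cdx2 went from -0.50 to -0.08, and Yap1 with Tead4 turned from -0.27 to 0.08. The median change of all genes moved with the scaling, for example from -0.38 to -4.20 between MII oocyte and 32-cell stage with the authors' normalized table. A change of control genes or scaling shifts all genes of a step together. Without normalization, blastomeres stand against whole oocytes and zygotes in the steps from these stages. Beyond that, the cause of the following changes was not tested. With that table Tead4 changed by 0.78 from 2- to 4-cell, -2.42 from 8- to 16-cell and -1.69 from 16- to 32-cell. Yap1 changed by -0.67 from zygote to 2-cell and 0.89 from 16- to 32-cell. Lats2 changed by 0.092 from MII oocyte to zygote, -1.76 to 2-cell, -1.45 from 8- to 16-cell and -0.61 from MII oocyte to 32-cell. Nf2 changed by -0.24 from 2- to 4-cell, -0.23 from 16- to 32-cell and -3.35 from MII oocyte to 32-cell, Cdx2 by -1.95 over the last span, and Gata3 by -0.17 from 2- to 4-cell. With no normalization Tead4 changed by -2.50 from 16- to 32-cell. Yap1 changed by 0.75 from MII oocyte to zygote, -3.22 to 2-cell, 0.17 to 4-cell and 0.075 from 16- to 32-cell. Lats2 changed by -4.31 from zygote to 2-cell, -0.94 from 8- to 16-cell and -1.53 from MII oocyte to 32-cell. Nf2 changed by -1.71 from zygote to 2-cell, -1.04 from 16- to 32-cell and -4.27 from MII oocyte to 32-cell, and Cdx2 by -1.96 from zygote to 2-cell and -2.87 from MII oocyte to 32-cell. From MII oocyte to zygote Yap1 was 0.62 without Hnrnpr and 0.67 with all labelled samples, Lats2 was 0.15 with median scaling and 0.014 without Ube2e1, and Nf2 was -0.0033 with all labelled samples and -0.073 without Hnrnpr. From zygote to 2-cell Yap1 was 0.21 without Hnrnpr and -0.72 without Ube2e1, and Lats2 was -1.81 without Ube2e1 and -3.59 in single cells. From 2- to 4-cell Nf2 was -0.028 without Hnrnpr and -0.031 without Ssu72, and Gata3 was -1.71 in single cells. From 8- to 16-cell Yap1 lost its call without Hnrnpr (-0.91), without Ssu72 (-0.999), with a floor at -10 (-0.92) and with whole embryos added (-0.41). It also lost it under 2 alternatives chosen after seeing the data, linear means within embryos (-0.55) and leaving out the sample with no Yap1 product (-0.73). Other alternatives chosen after seeing the data left out 4-cell embryo 6, without which Tead4 was 1.03 and Lats2 2.10 from 2- to 4-cell, and the 3 samples of the 2-cell stage with no blastomere in their titles, without which Yap1 was -0.57 and Lats2 -2.15 from zygote to 2-cell. Linear means within embryos ended the calls of Cdx2 (-3.28) and Gata3 (-4.29) between embryos averaged from blastomeres and whole embryos. Lats2 was 0.0049 from 16- to 32-cell without Ssu72. Gata3 from MII oocyte to 32-cell was 0.27 with all labelled samples, 0.93 with the floor, 0.17 with median scaling, 2.69 with whole embryos, 0.45 without Ssu72 and 4.63 with linear means.

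With the control genes subtracted, the steps in whole embryos were -0.12 for Tead4, 0.029 for Yap1 and 0.92 for Lats2 from 8- to 16-cell, 0.26, 1.40 and 0.24 from 16- to 32-cell, and -0.70 for Lats2 from zygote to 2-cell. Leaving out 1 embryo at a time gave -1.48 to -0.53 for Yap1 from 8- to 16-cell, and Nf2 (0.91 to 0.94) lost its call from 16- to 32-cell without either 16-cell embryo, as did Cdx2 (-6.31 to -5.66), while Gata3 lost it without embryo 4 (-7.14). In whole embryos, leaving out 1 at a time gave for Tead4 -0.0042 to 1.69 from 2- to 4-cell, 1.83 to 2.71 from 8- to 16-cell (call lost without 8-cell embryo 3) and -2.06 to -1.24 from 16- to 32-cell. It gave for Yap1 -0.61 to 0.20 from 2- to 4-cell and -1.01 to -0.085 from 16- to 32-cell, and for Lats2 -2.25 to -1.29 from 16- to 32-cell. With 1 embryo left in a group, that embryo is assumed to vary like the other groups.

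Samples with the same replicate number in MII oocytes and zygotes share only the number (11 pairs, median r -0.12, from -0.29 to 0.27). With the replicate number as a block, Yap1 changed by 0.72 (adjusted p = 1.99e-04), Tead4 by -0.68 and Lats2 by -0.09, and no member's call changed.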
